A study of Mus musculus with 7 samples.

Results

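The sorting nexins and the retromer core were compared between cortical microglia of mice with a conditional deletion of Srgap2 and those of control mice. The genes were all those whose symbol is Snx followed by a number, with Vps26a, Vps26b, Vps29 and Vps35 added, which gave 34 of the 23420 genes in the count table. Of these, 33 had enough counts to be tested, among 11991 genes tested in all. Snx31 had 4 counts in all, 2 in cKO replicate 3 and 2 in WT replicate 3, and was not tested. The cKO group (n = 4) held mice of the genotype Tmem119creErt2+ Srgap2f/f, with a tamoxifen-inducible Cre driven from the microglial gene Tmem119, and the WT group (n = 3) held Srgap2f/f littermates without the Cre. Both groups received tamoxifen at 75 ug/g on postnatal days 8 and 10 and were 30 days old at sorting. Cells were gated as CD11b+, CD45low and CX3CR1+, and each library came from its own numbered mouse. Since the Cre was carried by the cKO group alone, its presence and the deletion of Srgap2 cannot be told apart.

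Sorting nexins are proteins with a PX domain, a fold that binds phosphoinositides and places the protein on endosomes. Members with an added BAR domain dimerise into a curved surface that shapes membrane tubules, and retromer, built of VPS26, VPS29 and VPS35, sorts membrane proteins into such carriers for return to the Golgi or the cell surface. Microglia use the endosomal system to take up, recycle and degrade material. The protein encoded by Srgap2 carries an F-BAR domain, a relative of the BAR domain of the sorting nexins. Among the 34 genes, 12 encode a BAR domain (Snx1, Snx2, Snx4, Snx5, Snx6, Snx7, Snx8, Snx9, Snx18, Snx30, Snx32 and Snx33), 3 a FERM domain (Snx17, Snx27 and Snx31) and 4 the PXA and PXC domains (Snx13, Snx14, Snx19 and Snx25). Another 11 have the PX domain with none of these, and 4 encode the retromer core.

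Srgap2 averaged 272 ± 55.0 CPM over the cKO mice (SD, n = 4), against 788 ± 165 CPM over the WT mice (SD, n = 3). CPM is the usual unit of counts relative to library size, here scaled with TMM factors. Srgap2 fell by 1.53 on the log2 scale (SE 0.17, edgeR adjusted p = 0.0053), and reads outside the deleted part are included in its counts. Total counts ranged from 27016173 to 35707304 per library. All 12 microglial markers were detected, with a sum of 56204 to 66649 CPM in cKO and 65687 to 69244 CPM in WT. Of these markers 7 had a log2 fold change below 0 and 5 above. Tmem119, the gene that carries the Cre in cKO mice, was the 1 with an edgeR adjusted p under 0.05, and it was lower in cKO (adjusted p = 0.046). Marker sums for border-associated macrophages were 1174 to 1436 CPM in cKO and 1088 to 1349 CPM in WT. The sums for astrocytes were 88.8 to 141 CPM in cKO and 135 to 141 CPM in WT, those for the oligodendrocyte lineage 95.8 to 148 and 111 to 121, and those for endothelial and mural cells 57.8 to 76.7 and 73.1 to 80.8, with Cldn5, Ly6c1, Rgs5 and Kcnj8 listed at 0. Lymphocyte markers summed to 35.9 to 61.6 CPM in cKO and 41.6 to 55.3 in WT. Monocyte and neutrophil markers summed to 10.4 to 13.6 and 6.90 to 12.9 CPM, with Retnlg at 0, neuronal markers to 7.93 to 11.5 and 6.50 to 11.5 CPM, and erythroid markers to 1.42 to 20.6 and 0.47 to 6.56 CPM, with Hba-a1 and Hba-a2 at 0. The part of other cell types in the results on the sorting nexins was not tested. In these bulk samples, fewer cells of a type and less RNA per cell cannot be told apart.

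The upstream sequences of Snx3, Snx12 and Snx5 are shown because these were the 3 genes of the set with the smallest p-values. Each is the 250 bases before the annotated start in RefSeq, build GRCm38.p6, written 5′ to 3′ on the strand of the gene. Capitals mark the palindromic E-box CACGTG, the GC box GGGCGG and the CCAAT box CCAAT, each searched on both strands, so that ATTGG is a CCAAT box on the other strand. The window of Snx3 is chr10:42501804-42502053 (plus strand), that of Snx12 is chrX:101222564-101222813 (minus strand) and that of Snx5 is chr2:144270573-144270822 (minus strand).
Snx3: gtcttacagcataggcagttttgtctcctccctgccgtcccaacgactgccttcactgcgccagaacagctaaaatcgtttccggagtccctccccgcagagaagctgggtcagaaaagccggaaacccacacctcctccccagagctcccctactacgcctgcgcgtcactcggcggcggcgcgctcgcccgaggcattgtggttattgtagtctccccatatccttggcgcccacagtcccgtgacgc
Snx12: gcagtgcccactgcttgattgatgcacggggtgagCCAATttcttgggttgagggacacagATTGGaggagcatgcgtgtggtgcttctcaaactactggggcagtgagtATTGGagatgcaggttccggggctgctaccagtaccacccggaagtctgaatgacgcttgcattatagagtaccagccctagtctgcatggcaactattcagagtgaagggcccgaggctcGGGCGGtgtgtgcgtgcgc
Snx5: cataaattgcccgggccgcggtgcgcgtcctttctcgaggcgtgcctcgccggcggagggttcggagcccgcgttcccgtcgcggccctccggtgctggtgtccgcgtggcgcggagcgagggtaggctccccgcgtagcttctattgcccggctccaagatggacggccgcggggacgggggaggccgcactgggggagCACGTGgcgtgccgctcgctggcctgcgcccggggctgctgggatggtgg

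The 3 windows shared none of the motifs searched. The Snx3 window had a GC content of 61.2% and held none of the motifs. The Snx12 window (56.4% GC) held 3 CCAAT boxes and 1 GC box, and the Snx5 window (74.4% GC) held 1 E-box. Of the 34 genes, 24 had windows in the RefSeq table. A GC box was found upstream of 18 of these 24, a CCAAT box upstream of 10 and the E-box upstream of 4 (Snx5, Snx8, Snx18 and Vps26a). Among all 32851 windows of the same length, 32.7% held a GC box, 33.8% a CCAAT box and 6.02% the E-box. A gene can have several windows, and of the 30 windows of these 24 genes 22 held a GC box, 11 a CCAAT box and 5 the E-box. A match is a run of letters, not a binding site.

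Snx3 was the only one of the 33 genes tested to pass the threshold, an adjusted p of 0.05 over all 11991 genes in the quasi-likelihood test of edgeR. Its product has a PX domain and little else, binds the endosomal lipid PI3P and recruits retromer to early endosomes. Values per mouse are given in the order of the replicate numbers throughout. Snx3 stood at 127, 144, 141 and 143 CPM in the 4 cKO mice, against 83.5, 88.6 and 88.5 CPM in the 3 WT mice. The groups were far apart, and cKO replicate 1 was the lowest of its group. Snx3 averaged 139 ± 7.77 CPM over the cKO mice (SD, n = 4), 1.6-fold the 86.9 ± 2.93 CPM of the WT mice (SD, n = 3). The log2 fold change of cKO over WT was 0.68 (SE 0.10, 95% confidence interval 0.46 to 0.89, edgeR adjusted p = 0.025). An exact permutation test (two-sided, 35 divisions) of its mean log2 CPM gave p = 0.029, the smallest it allows. In the whole experiment 0.359% of the genes passed, 0.317% higher and 0.0417% lower in cKO. By DESeq2, 5 of the 33 passed, all higher in cKO (Snx3, Snx4, Snx5, Snx12 and Vps29), where 4.49% of all genes did, and 3.12% were higher in cKO.

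The rise of Snx3 kept its size when single libraries were left out, but its adjusted p stayed under the threshold in 2 of the 7 cases. Its log2 fold change lay between 0.65 and 0.70 when any 1 of the 7 libraries was left out. The edgeR adjusted p was 0.013 without cKO replicate 1 and 0.039 without cKO replicate 4. Leaving out cKO replicate 2 raised it to 0.097, and leaving out cKO replicate 3 to 0.11. It became 0.065, 0.21 and 0.10 when WT replicate 1, 2 or 3, respectively, was left out.

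**Figure D1:**
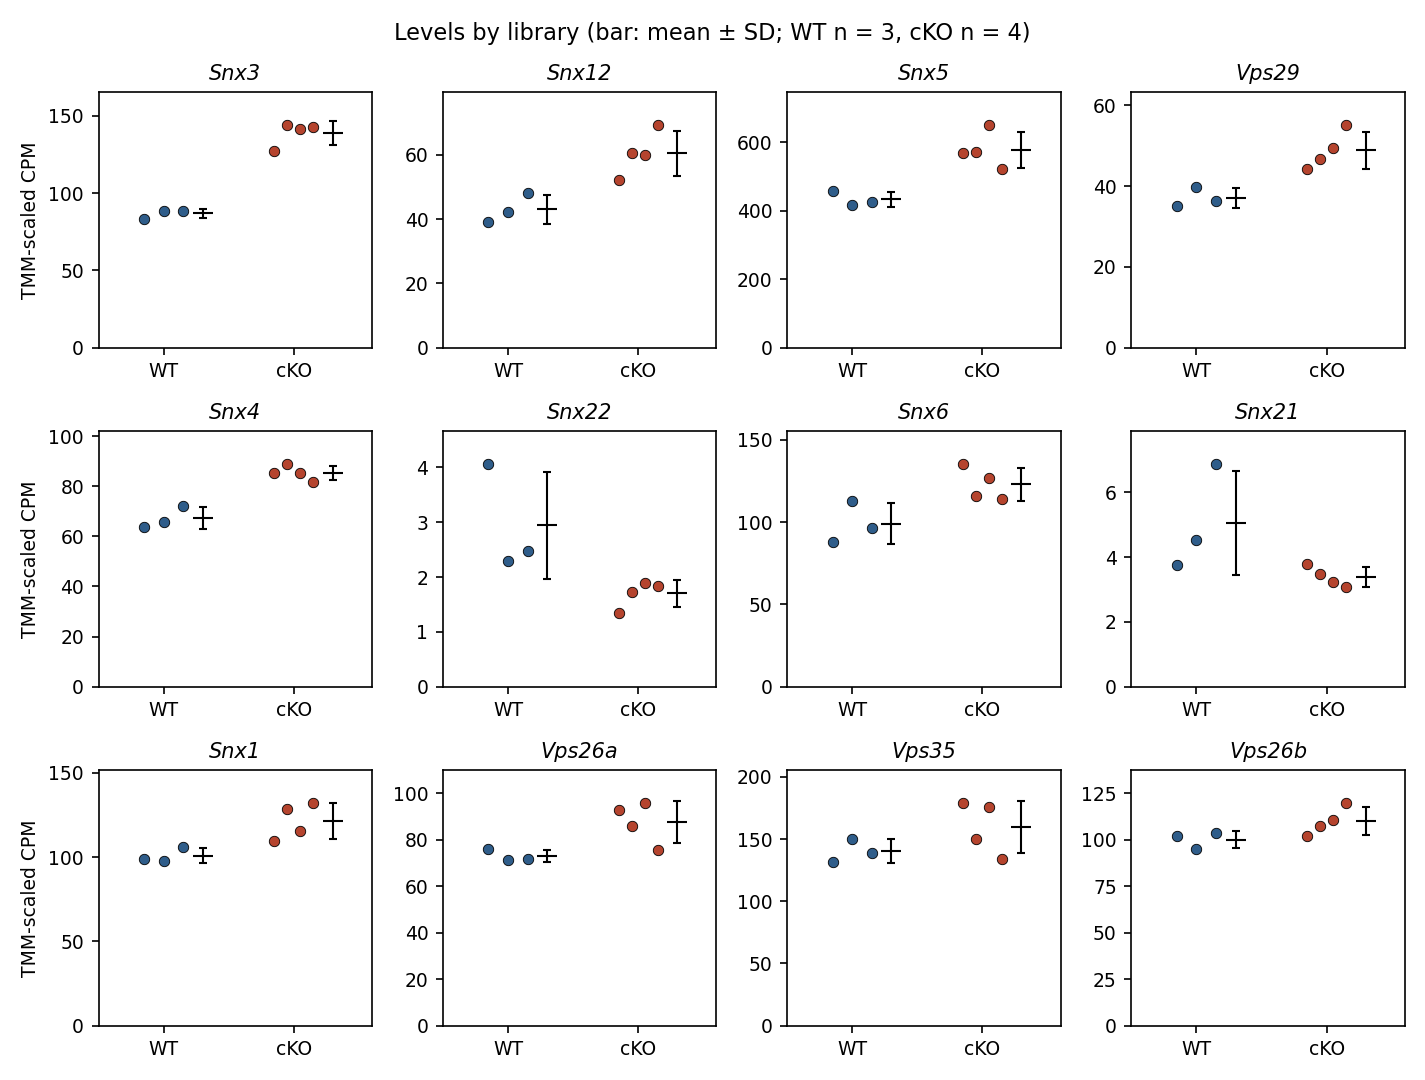
Level of 12 sorting nexin and retromer genes in each library. The vertical axes give TMM-scaled CPM from 0, points are mice (blue WT, red cKO, in replicate order), and bars are mean ± SD; Snx3 lies at 127 to 144 CPM in cKO and at 83.5 to 88.6 CPM in WT.

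Snx12 encodes the closest relative of SNX3, and its libraries also lay apart. Its level was 52.2, 60.6, 59.8 and 69.1 CPM in the 4 cKO mice and 39.1, 42.3 and 48.0 CPM in the 3 WT mice. Every cKO library was above every WT library, with the widest spread in cKO. The log2 fold change of 0.49 (SE 0.13, 95% confidence interval 0.21 to 0.76) did not pass (edgeR adjusted p = 0.12). The ratio of Snx3 to Snx12, each per kilobase of median transcript length, was 2.17 to 2.57 within the cKO libraries. It was 1.95 to 2.25 within the WT libraries, so the ranges overlapped. Its mean was 2.43 in cKO and 2.14 in WT, and 3.98 and 3.49 with the longest transcript. The size of this and the later ratios can thus depend on the length used.

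All 4 retromer core genes had a log2 fold change above 0, with a median of 0.22, and none passed. At an unadjusted p under 0.05 there were 2, both higher in cKO, and by DESeq2 1 passed (Vps29). Of all genes tested, 9.65% were higher in cKO at that unadjusted p, and 3.12% were higher by DESeq2. VPS29 is a small scaffold subunit that also contacts regulators of retromer. Vps29 was at 44.2, 46.6, 49.4 and 55.0 CPM in the 4 cKO mice and at 34.9, 39.7 and 36.2 CPM in the 3 WT mice, with no overlap. Its log2 fold change was 0.40 (SE 0.12, edgeR adjusted p = 0.14), and it was 0.25 with loess offsets for transcript GC content and length (adjusted p = 0.21).

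VPS26A and VPS26B are alternative arrestin-like subunits of the same complex. Vps26a was at 92.8, 85.8, 95.6 and 75.5 CPM in the 4 cKO mice, against 76.0, 71.3 and 71.8 CPM in the 3 WT mice. Only cKO replicate 4 reached down into the WT range, and the log2 fold change was 0.26 (SE 0.11, edgeR adjusted p = 0.28). Vps26b was at 102, 108, 111 and 120 CPM in the 4 cKO mice and 102, 95.04 and 104 CPM in the 3 WT mice, so the groups overlapped (0.13, SE 0.10, adjusted p = 0.56). Per kilobase the Vps26a to Vps26b ratio was 0.87 to 1.25 in cKO and 0.95 to 1.03 in WT, with the WT range inside that of cKO.

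VPS35 is the long backbone of retromer. Vps35 was at 179, 150, 176 and 134 CPM in the 4 cKO mice and at 131, 150 and 139 CPM in the 3 WT mice. The groups overlapped, with cKO replicate 4 below 2 of the WT libraries. The log2 fold change was 0.19 (SE 0.12, 95% confidence interval −0.08 to 0.46, edgeR adjusted p = 0.49). This interval reaches from a slight fall to a rise, and the data do not show that Vps35 was alike in the groups.

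None of the 12 genes with a BAR domain passed, while 4 had an unadjusted p under 0.05, all higher in cKO, and 2 passed by DESeq2 (Snx4 and Snx5). The shares of all genes higher in cKO were 9.65% at that unadjusted p and 3.12% by DESeq2. Their log2 fold changes ran from −0.13 to 0.41 with a median of 0.12, 7 above 0 and 5 below. For the 17 tested sorting nexins without a BAR domain the median was −0.01, with 8 above 0 and 9 below. The difference between these medians was not tested. Over all 11991 genes tested the median log2 fold change was −0.01.

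SNX1 and SNX2 pair with SNX5 and SNX6 in a coat that sorts cargo such as the mannose 6-phosphate receptor, and all 4 genes had log2 fold changes above 0, with a median of 0.29. Snx5 was at 569, 571, 649 and 521 CPM in the 4 cKO mice against 458, 417 and 424 CPM in the 3 WT mice. The groups did not overlap, and the log2 fold change was 0.41 (SE 0.11, 95% confidence interval 0.18 to 0.65, edgeR adjusted p = 0.12). Snx6 was at 135, 116, 127 and 114 CPM in the 4 cKO mice and 88.1, 113 and 96.2 CPM in the 3 WT mice. Its groups came close to each other at WT replicate 2 without overlapping (0.31, SE 0.12, adjusted p = 0.22).

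Snx1 was at 110, 129, 115 and 132 CPM in the 4 cKO mice and 99.0, 97.7 and 106 CPM in the 3 WT mice. The groups of Snx1 did not overlap (0.27, SE 0.11, edgeR adjusted p = 0.24). Snx2 was at 91.9 to 113 CPM in cKO and 79.2 to 94.4 CPM in WT, with overlapping groups (0.23, SE 0.12, adjusted p = 0.37). The per-kilobase ratio of Snx1 to Snx2 was 1.44 to 2.14 in cKO and 1.54 to 1.86 in WT, and that of Snx5 to Snx6 was 2.88 to 3.50 in cKO and 2.53 to 3.56 in WT. Both pairs thus kept overlapping ratios. Snx32, the third relative of Snx5 and Snx6, was scarce at 6.95 to 9.01 CPM in cKO and 7.31 to 9.87 CPM in WT (−0.09, SE 0.17, adjusted p = 0.84).

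SNX4 forms dimers with SNX7 or SNX30 that act in recycling and autophagy. Snx4 was at 85.2, 88.7, 85.3 and 81.8 CPM in the 4 cKO mice and at 63.5, 65.9 and 72.1 CPM in the 3 WT mice. The cKO libraries were close together and all above the WT libraries, and the log2 fold change of 0.34 (SE 0.10, 95% confidence interval 0.12 to 0.56) did not pass (edgeR adjusted p = 0.15). Neither partner gene passed. Snx7 was at 4.69 to 6.37 CPM in cKO and 4.75 to 5.78 CPM in WT (0.06, SE 0.18, 95% confidence interval −0.34 to 0.46). Snx30 was at 66.1 to 78.3 CPM in cKO and 73.2 to 90.6 CPM in WT (−0.13, SE 0.12, 95% confidence interval −0.40 to 0.13). The interval of Snx7 holds the value of Snx4, and that of Snx30 does not.

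SNX9, SNX18 and SNX33 add an SH3 domain and bind dynamin and actin regulators at sites of endocytosis. Snx18 was the most abundant of them, at 394, 398, 396 and 364 CPM in the 4 cKO mice and 405, 415 and 382 CPM in the 3 WT mice. The groups overlapped and its interval was narrow (−0.05, SE 0.10, 95% confidence interval −0.26 to 0.16, edgeR adjusted p = 0.86). Snx9 was at 55.1 to 63.1 CPM in cKO and 49.8 to 56.2 CPM in WT (0.17, SE 0.11, adjusted p = 0.46), and its per-kilobase ratio to Snx18 was 0.194 to 0.211 in cKO and 0.160 to 0.197 in WT. Snx33 was at 5.47 to 7.91 CPM in cKO and 6.78 to 7.38 CPM in WT (−0.08, SE 0.17). Snx8, whose product acts between endosomes and the Golgi, was at 43.6 to 65.7 CPM in cKO and 48.5 to 63.2 CPM in WT (−0.11, SE 0.15).

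**Figure D2:**
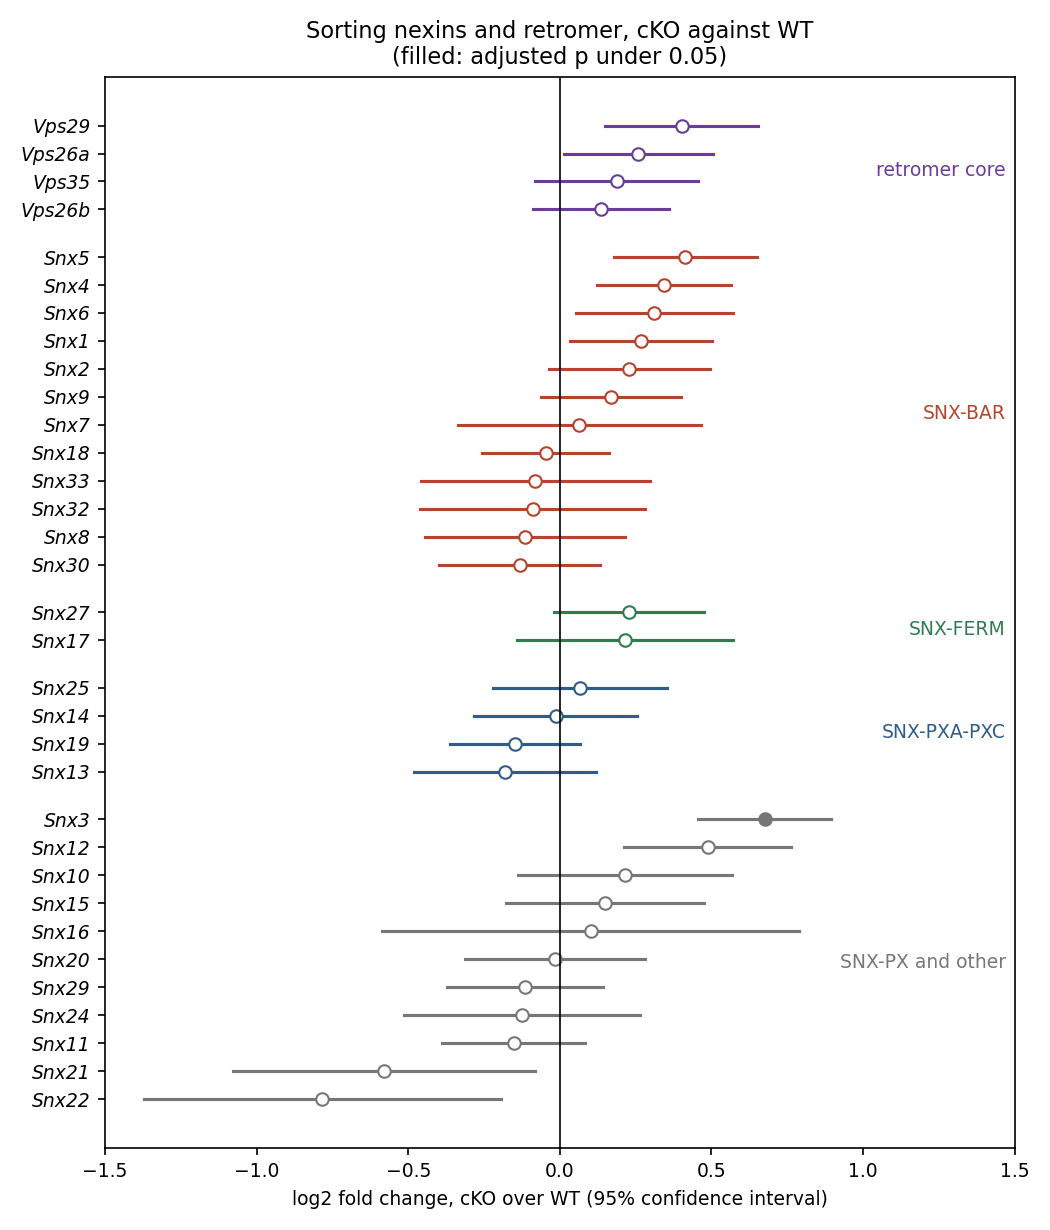
Log2 fold change of cKO over WT for the 33 genes tested, by domain class. Points are estimates, bars 95% confidence intervals and the filled point has an adjusted p under 0.05; this is Snx3 at 0.68, and the retromer core genes all lie to the right of 0.

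Of the FERM-domain genes, which encode adaptors that recognise sorting signals in cargo tails, 2 were tested and neither passed, at an unadjusted p under 0.05 (0 genes) or by DESeq2 (0 genes). SNX17 recycles integrins and LRP1 with the Commander complex. Snx17 was at 367, 507, 446 and 623 CPM in the 4 cKO mice and 368, 449 and 439 CPM in the 3 WT mice. The cKO libraries spread on both sides of the WT libraries (0.22, SE 0.16, edgeR adjusted p = 0.56). SNX27 has a PDZ domain and works with retromer in returning receptors to the cell surface. Snx27 was at 80.3 to 96.1 CPM in cKO and 67.6 to 79.7 CPM in WT without overlap, and its log2 fold change of 0.23 (SE 0.11) did not pass (adjusted p = 0.34).

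The 4 genes with PXA and PXC domains, whose products mostly sit in the endoplasmic reticulum and contact other organelles, had a median log2 fold change of −0.08. None passed in edgeR, at an unadjusted p under 0.05 (0 genes) or in DESeq2 (0 genes). Snx19 was the most abundant per kilobase, at 83.6, 92.2, 82.4 and 86.8 CPM in the 4 cKO mice and 95.2, 95.4 and 96.1 CPM in the 3 WT mice. Every cKO library was below every WT library, but the difference was small (−0.15, SE 0.10, edgeR adjusted p = 0.49). Snx13, Snx14 and Snx25 had log2 fold changes from −0.18 to 0.06, and their groups overlapped.

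Among the 11 genes of the remaining class, Snx22 and Snx21 had the lowest fold changes. Snx22, which encodes a short PX protein, was at 1.35, 1.73, 1.89 and 1.84 CPM in the 4 cKO mice and 4.06, 2.29 and 2.48 CPM in the 3 WT mice. The groups did not overlap, and WT replicate 1 was far above the others (−0.78, SE 0.27, edgeR adjusted p = 0.18). Snx21 was at 3.77, 3.49, 3.24 and 3.06 CPM in the 4 cKO mice and 3.76, 4.54 and 6.86 CPM in the 3 WT mice. The groups met at cKO replicate 1 and WT replicate 1 (−0.58, SE 0.23, adjusted p = 0.23). Leaving out WT replicate 1 moved Snx22 to −0.49, and leaving out WT replicate 3 moved Snx21 to −0.29. Both genes were scarce, with 474 counts for Snx22 and 893 for Snx21 over all 7 libraries. The other 7 genes of the class besides Snx3 and Snx12 (Snx10, Snx11, Snx15, Snx16, Snx20, Snx24 and Snx29) had log2 fold changes from −0.15 to 0.22 with overlapping groups.

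Over the 33 genes tested, 19 had a log2 fold change above 0 and 14 below, against 48.1% of all genes above 0, and the median was 0.10. The median was 0.044 without cKO replicate 3, 0.053 with the level of Xist, a marker of female cells, as a covariate and 0.028 with this covariate and the GC and length offsets. At an unadjusted p under 0.05 there were 10, 8 higher and 2 lower in cKO, where 16.5% of all genes were so, 9.65% higher and 6.87% lower. Every cKO library was above every WT library for 8 genes (Snx1, Snx3, Snx4, Snx5, Snx6, Snx12, Snx27 and Vps29), against 8.86% of all genes, and below for 2 (Snx19 and Snx22), against 7.2%, or 16.1% together. These shares are given as description, without a test of the set.

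The levels of the genes spread widely in WT microglia, when compared per kilobase of the median protein-coding transcript. Snx17 was the highest at 547 ± 57.5 CPM per kilobase (SD, n = 3), Snx5 followed at 176 ± 8.90 and Snx18 at 90.1 ± 3.87. These 3 kept their order with the longest transcript in place of the median, which put Snx17 at 207 and Snx5 at 173 CPM per kilobase. Snx17 and Snx5 were thus much closer with the longest transcript. With the median transcript, the WT ranges of Snx17, Snx5 and Snx18 lay apart from each other and from those below. Snx3 at 82.2 ± 2.77 and Snx20 at 75.7 ± 6.32 overlapped, as did Snx20 and Snx1 at 72.6 ± 3.20. In cKO, Snx3 was at 131 ± 7.35 CPM per kilobase (SD, n = 4) and Snx18 at 87.2 ± 3.62, so that Snx3 ranked 3rd there and 4th in WT. These ranks are for the median transcript, and with the longest transcript Snx3 was 5th in WT, after Snx20.

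Retromer subunits lay in the middle of the order in WT. Vps29 was at 51.3 ± 3.41 CPM per kilobase (SD, n = 3) and 8th of 33, but 21st with the longest transcript. Vps35 was at 40.4 ± 2.73, Vps26a at 28.1 ± 0.99 and Vps26b at 28.0 ± 1.27, and the ranges of the last 2 overlapped. The lowest in WT were Snx21 at 3.50 ± 1.12, Snx16 at 1.64 ± 0.53, Snx33 at 1.54 ± 0.07 and Snx22 at 1.16 ± 0.38, of which the last 3 overlapped from neighbour to neighbour.

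**Figure D3:**
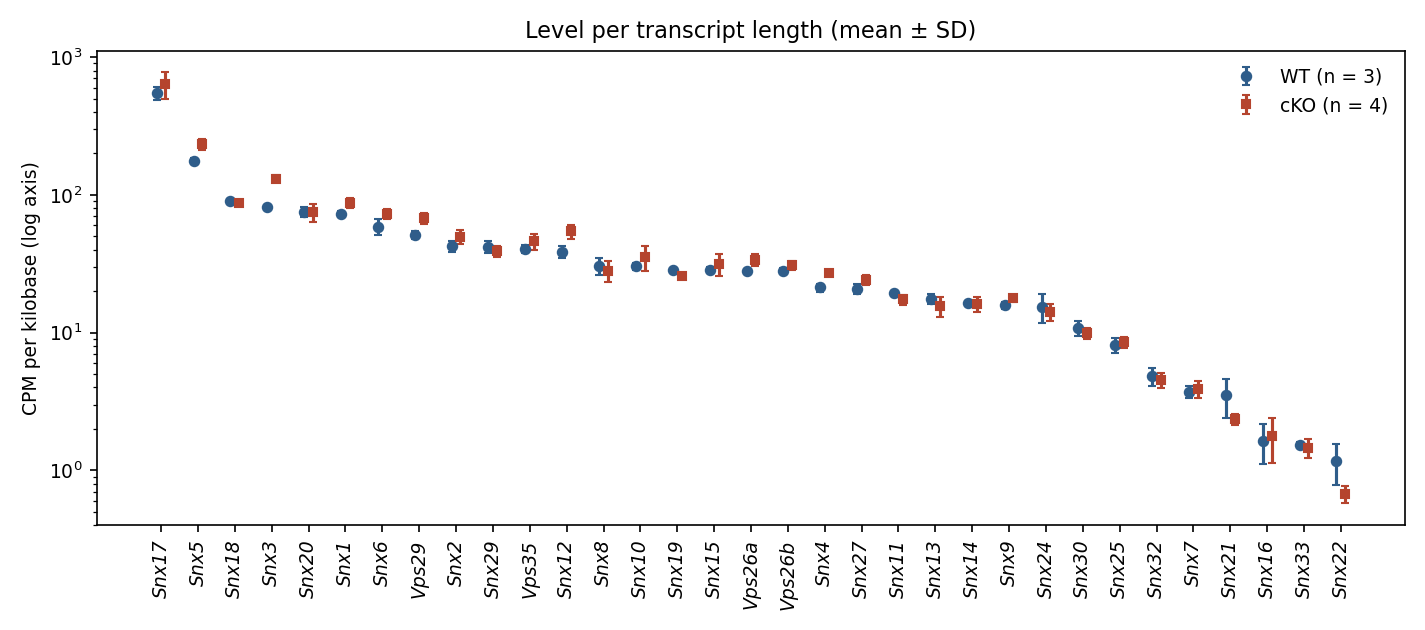
Level of the 33 genes per kilobase of median transcript length, in order of the WT mean. The vertical log axis gives TMM-scaled CPM per kilobase, with mean ± SD for WT (blue circles, n = 3) and cKO (red squares, n = 4); the order runs from Snx17 at 547 in WT to Snx22 at 1.16, and Snx3 is at 131 in cKO and 82.2 in WT.

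The spread of several genes within the cKO group followed the GC content of their transcripts, which ran from 39.9% for Snx13 to 60.8% for Snx15. In cKO replicate 4, 11 of the 33 genes were the highest of the cKO libraries and 16 the lowest. The rank correlation between GC content and the departure of a library from the others of its group, over the 33 genes, was −0.57, 0.42, −0.62 and 0.69 for the 4 cKO mice, and −0.03, −0.09 and −0.08 for the 3 WT mice. Over all genes the departure was taken from the mean of all 7 libraries. The rank correlations were then −0.51, 0.16, −0.40 and 0.43 in cKO and −0.01, 0.07 and 0.23 in WT, so the trend was not particular to the 33 genes. These values describe genes that share libraries and depth. With loess offsets for transcript GC content and length the cKO values over the 33 genes were 0.12, −0.12, −0.07 and −0.05, and that of WT replicate 3 was −0.42. The offsets were fitted over all genes to these same libraries, so the change in these values follows in part from the fit. Whether GC content accounts for the spread was not tested. The offsets lowered the SD of log2 CPM within cKO for 24 of the 33 genes, and the share over all genes was not computed. For Vps35 this SD went from 0.20 to 0.04, for Snx17 from 0.32 to 0.17 and for Snx3 from 0.08 to 0.09.

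**Figure D4:**
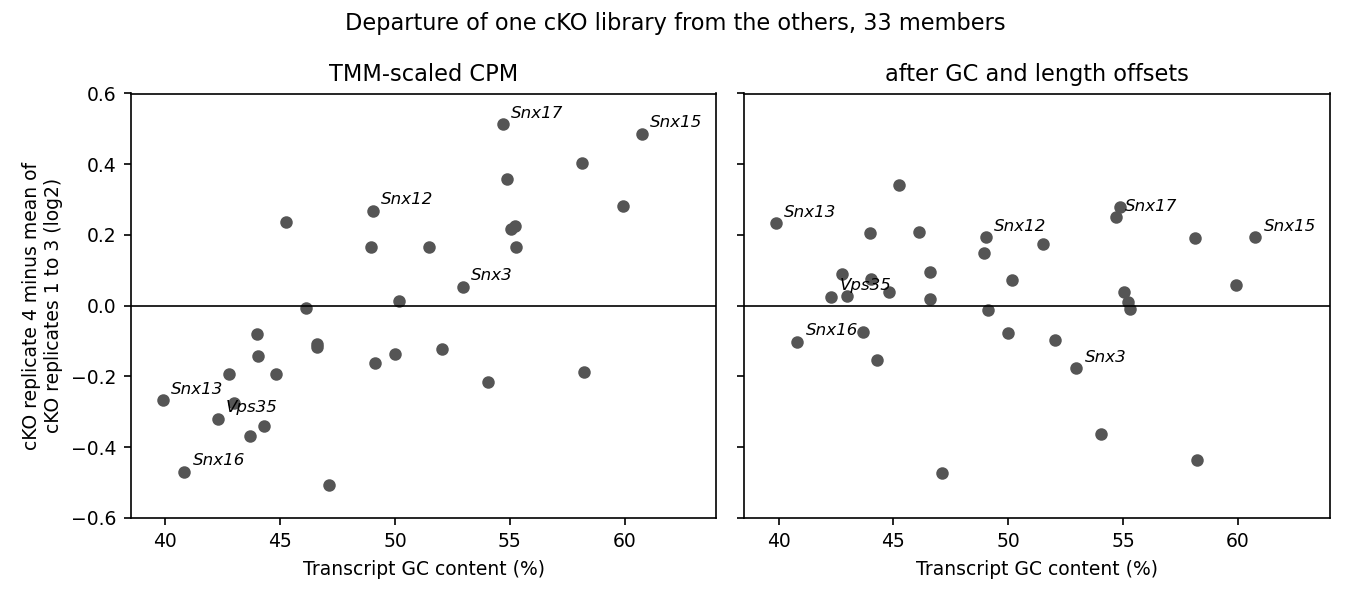
Departure of cKO replicate 4 from the mean of cKO replicates 1 to 3 (log2 scale) against transcript GC content in percent, for the 33 genes (points), before offsets (left) and after (right). Before offsets the points rise from left to right (rank correlation 0.69), with Vps35 below 0 and Snx17 above. After them no such order is seen (−0.05), with offsets that were fitted to these same libraries.

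Over the 33 genes the rank correlation of GC content with the log2 fold change was −0.39, and over all genes tested it was −0.13. With the GC and length offsets 3 of the 33 passed (Snx3, Snx5 and Snx12), where 2.96% of all genes did. Snx3 then had a log2 fold change of 0.63 (edgeR adjusted p = 0.011), Snx5 of 0.38 (adjusted p = 0.044) and Snx12 of 0.41 (adjusted p = 0.044). Xist, which marks female cells, reached 69.4 CPM in cKO replicate 2, 144 CPM in cKO replicate 4, 243 CPM in WT replicate 2 and 127 CPM in WT replicate 3. It was below 1 CPM in the other 3 libraries. With log2 CPM of Xist as a covariate, 5 of the 33 passed (Snx3, Snx4, Snx5, Snx12 and Vps29), where 8.81% of all genes did. The share of all genes that passed was 11.3% with the offsets and this covariate together, where 5 of the 33 passed, and 7.54% with limma-voom and sample quality weights, where 6 did. With a block for lower and higher mouse numbers, 2 of the 33 passed (Snx3 and Snx12) and 1.42% of all genes.

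**Figure D5:**
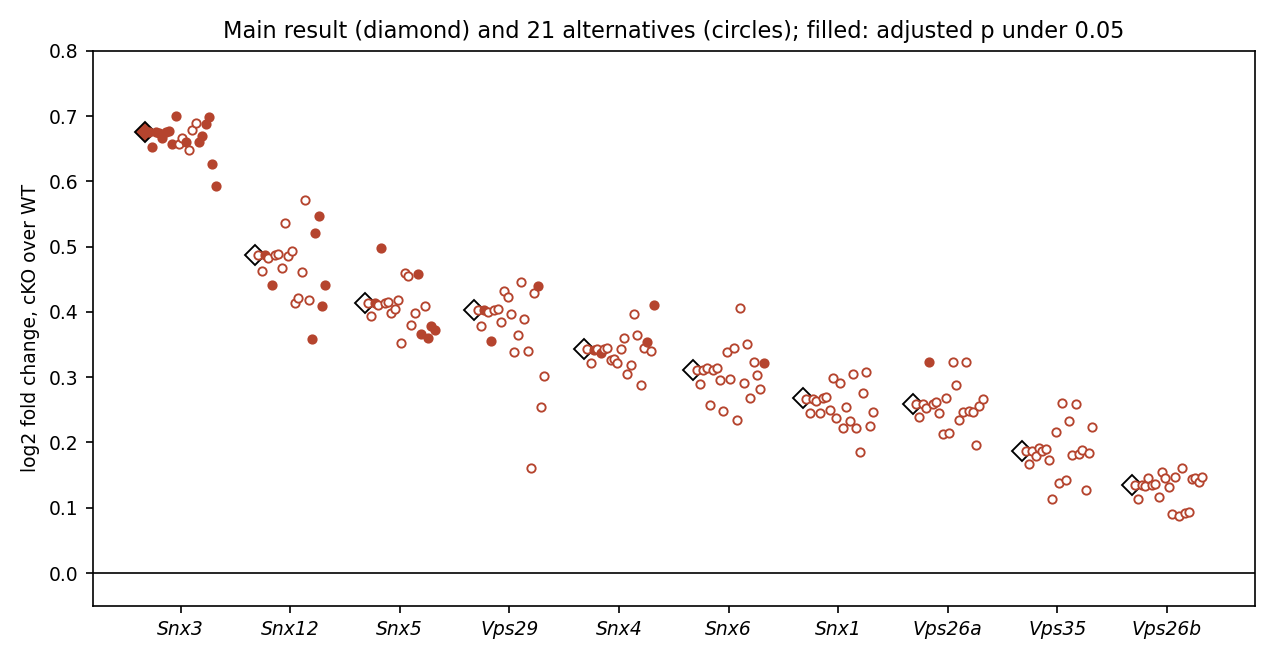
Log2 fold change of cKO over WT for 10 genes in the main analysis (diamonds) and in 21 alternative analyses (circles). Filled symbols have an adjusted p under 0.05; Snx3 stays between 0.59 and 0.70, and Vps29 reaches from 0.16 to 0.45.

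Exons of 12 of the 34 genes overlap those of another gene in GENCODE M21, and the strand setting of the counting is not given in the sources used here, so reads of such neighbours cannot be told apart. The shared part was 28.5% of the exon bases for Snx22 (with Ppib), 16.2% for Snx11, 13.2% for Snx32 (with Cfl1) and 12.5% for Snx16 (with Chmp4c). For Snx17 it was 6.6% with Eif2b4 and 5.27% with Zfp513. It was 8.92% or less for Snx5, Snx14, Snx21, Snx25, Snx30, Vps29 and Vps35. Snx3, Snx12, Snx4, Snx6 and Snx1 have no such overlap. Cfl1, which encodes the actin-severing protein cofilin, rose (0.89, SE 0.13, edgeR adjusted p = 0.025), and Snx32 had a value of −0.09. Whether reads of a neighbour entered the counts was not tested for Snx32 or any other gene, and values of the other neighbours are not given.

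Of the 163 genes tested in the lists of the wider endosomal pathway, 1 passed, where 0.359% of all genes did. This was Rab7, whose product is the GTPase that binds retromer on late endosomes. Rab7 stood at 124, 131, 130 and 121 CPM in the 4 cKO mice and 79.9, 84.2 and 90.2 CPM in the 3 WT mice. The groups did not overlap, and Rab7 rose by 0.58 on the log2 scale (SE 0.10, edgeR adjusted p = 0.040). Leaving out cKO replicate 2 or 3 raised its adjusted p to 0.16 each time, and leaving out WT replicate 1, 2 or 3 to 0.10, 0.26 and 0.13, respectively. Of the 11 tested partners and regulators of retromer, Rab7 was the 1 that passed, and the median was 0.09. The GTPase gene Rab21 (0.39, adjusted p = 0.15) and Ehd4, which encodes a membrane-remodelling ATPase (0.34, adjusted p = 0.21), were among those that did not. Of the 11, 3 had an unadjusted p under 0.05, all higher, where 9.65% of all genes were so. By DESeq2 1 passed, higher in cKO, where 3.12% of all genes were higher.

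The WASH complex is recruited by retromer and nucleates branched actin on endosomes together with capping protein. Of these 8 genes none passed in edgeR, 5 had an unadjusted p under 0.05, all higher in cKO, and 2 passed by DESeq2, with a median log2 fold change of 0.25. Among all genes 9.65% were higher at that unadjusted p and 3.12% by DESeq2, and the lists that follow are read against the same shares. Capzb had a value of 0.55 (adjusted p = 0.070) and Capza1 of 0.52 (adjusted p = 0.075), both encoding capping protein subunits. The capping protein genes of the list ran from 0.30 to 0.55. The WASH subunit genes were lower, from −0.04 to 0.26, and the highest of these was the gene listed as Fam21 (0.26, adjusted p = 0.25). Of the 15 genes of Commander, the complex that works with SNX17, none passed, 3 had an unadjusted p under 0.05 and 2 passed by DESeq2, all higher, with a median of 0.15. Commd10 was at 0.53 (adjusted p = 0.11), Commd6 at 0.43 (adjusted p = 0.13) and Commd1 at 0.38 (adjusted p = 0.28).

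Of 17 tested cargo genes of retromer and the sorting nexins, none passed, 2 had an unadjusted p under 0.05 and were higher and 4 lower, and DESeq2 called 1 higher and 3 lower. Of all genes tested, 6.87% were lower at that unadjusted p, and 164 of 11991 were lower by DESeq2. The median log2 fold change of the cargo genes was −0.05. Stx7, a SNARE of late endosomes, was at 295, 261, 275 and 252 CPM in the 4 cKO mice and 198, 173 and 192 CPM in the 3 WT mice, with no overlap (0.53, edgeR adjusted p = 0.060). Slc2a1 encodes the glucose transporter GLUT1, which SNX27 recycles. Slc2a1 was at 72.7 to 88.9 CPM in cKO and 107 to 117 CPM in WT (−0.44, adjusted p = 0.11). Every cKO library of Slc2a1 was below every WT library, and the difference did not pass.

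Dynein and dynactin pull the tubules that sorting nexins form, and their list also held the kinesin genes Kif1b and Kif5b. Of these 13 genes none passed, 4 had an unadjusted p under 0.05 and 1 passed by DESeq2, all higher in cKO, with a median of 0.14. Dync1i2 was at 0.49 (adjusted p = 0.098), Dctn2 at 0.32 (adjusted p = 0.22) and Dctn6 at 0.31 (adjusted p = 0.18). The 27 genes of the ESCRT machinery, which sorts cargo to degradation in place of recycling, had a median of 0.23. None passed in edgeR, 9 had an unadjusted p under 0.05, all higher, where 9.65% of all genes were so, and 2 passed by DESeq2, where 3.12% of all genes were higher. Chmp4b was at 0.49 (adjusted p = 0.13), Chmp5 at 0.34 (adjusted p = 0.17) and Chmp3 at 0.34 (adjusted p = 0.15).

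The other lists had medians between −0.03 and 0.07, and no gene passed in edgeR. Counts of lower genes are read against 6.87% of all genes at an unadjusted p under 0.05 and 164 of 11991 by DESeq2. Of 20 genes for enzymes that make and remove the lipids that PX domains bind, or for subunits and regulators of these enzymes, 3 had an unadjusted p under 0.05, all higher, and 1 passed by DESeq2, with a median of 0.02. Becn1, which encodes a regulatory subunit of the lipid kinase complex, was at 0.31 (adjusted p = 0.16), Fig4 at 0.24 and Mtmr2 at 0.23. Of 23 genes with a BAR domain outside the sorting nexins, 2 were higher and 4 lower at an unadjusted p under 0.05, and 1 was lower by DESeq2, with a median of 0.07. Bin2 was at 0.44, Arfip2 at −0.35 and Sh3gl1 at −0.37. Of 17 other genes with a PX domain, 1 was lower at an unadjusted p under 0.05 and 0 passed by DESeq2, with a median of −0.03 and with Arhgap33 at −0.63, Noxo1 at −0.25 and Ncf4 at 0.20. The 9 CORVET and HOPS tethers had a median of 0.04, with 0 at an unadjusted p under 0.05 and 0 by DESeq2, and with Vps41 at 0.23, Vps33a at 0.13 and Vps18 at −0.13. The 5 GARP and EARP tethers had a median of 0.02, with 1 lower at an unadjusted p under 0.05 and 0 by DESeq2, and with Vps51 at −0.26, Vps53 at 0.20 and Vps52 at −0.03.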

How the data were processed

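Poly(A) RNA was sequenced from sorted cortical microglia of 7 mice. The authors deposited raw counts, whole numbers for each gene symbol; DRAGEN and the build GRCm39 are named, per the submitters' processing notes, while the sources used here name no annotation, counting rule or strand setting. Genes were kept with filterByExpr (least count 10, least total count 15), scaled with TMM factors and tested with the quasi-likelihood F test of edgeR 4.0.16 (limma 3.58.1, R 4.3.3, robust option, no covariate), with Benjamini-Hochberg adjustment over all genes tested and a threshold of 0.05. The standard error is the size of the log2 fold change divided by the square root of F. Scaled values are CPM. Exact permutation tests were two-sided and covered 35 splits. Pairs of libraries within a group were not repeats of one another (chi-square 18.0 to 93.1 per degree of freedom). DESeq2 1.42.0 was an alternative, with others in the closing section. Transcript GC content and length came from GENCODE M21 (another build), with loess offsets of span 0.3 and values for 99.3% of the genes. Of 271 symbols in the pathway and marker lists 268 were found, 11 by a synonym. Named were members past the threshold, the 10 with the smallest p, the retromer core, genes with a BAR domain, the most abundant of each class and up to 3 genes per list; Cfl1 and Snx27 were added after their values were seen. The fit was checked on simulated data. The members and lists were chosen with earlier results of these data known. Sex, litter and batches are not in the labels. A few listed genes are not reported here by name but are included in the totals.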

Additional observations from a re-analysis of the deposited data

Results flagged for a closer look

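In 67 comparisons within the cKO group, 5 had a single library far from the other 3, where chance gives about 1 in 20. Snx3 in cKO replicate 1 was at 127.2 CPM, against 141.5 to 143.8 CPM in the other cKO libraries, and was still above every WT library. Snx18 in cKO replicate 4 was at 364 CPM, against 393.6 to 398.3 CPM. Arhgap33, a scarce gene with a PX domain, was at 0.9194 CPM in cKO replicate 4, against 1.602 to 1.726 CPM. Chmp3, an ESCRT-III subunit gene, was at 118.3 CPM in cKO replicate 1, against 128 to 128.6 CPM. Vps41, a HOPS subunit gene, was at 50.66 CPM in cKO replicate 4, against 59.18 to 60.87 CPM.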

How the results depend on the processing

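The number of genes that passed depended on the method, and the values below give all genes, sorting nexin and retromer genes, and pathway genes, which were 43, 1 and 1 in the main analysis. They were 538, 5 and 14 with DESeq2, 904, 6 and 23 with limma-voom and sample quality weights, 170, 2 and 5 with a block for lower and higher mouse numbers, 1056, 5 and 17 with the Xist covariate, 355, 3 and 11 with the GC content and length offsets, and 1357, 5 and 28 with these offsets and the Xist covariate. Without a filter, 89 genes and 3 pathway genes passed. Leaving out 1 library gave 4 to 142 genes, 0 to 1 sorting nexin and retromer genes and 0 to 2 pathway genes. The replicate number as a block gave 288, 2 and 8, and the block with GC and length offsets 626, 3 and 12; deviations of same-numbered libraries correlated by 0.39, 0.07 and −0.17, so the numbers were not taken to pair the mice. The cause of these differences was not tested.

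Snx3 passed in 16 of 21 alternatives (0.59 to 0.70), the other 5 being left-out libraries, and Srgap2 in all 21 (−1.68 to −1.35). The median over the 33 genes was 0.044 to 0.14 with 1 library left out and 0.028 with the offsets and the Xist covariate. Sorting nexin and retromer genes without overlap between the groups numbered 9 to 13 in 12 alternatives and 10 in the main analysis. In the main analysis 16.1% of all genes did not overlap, and this share is not given for the alternatives. With 1 library left out the number was 10 to 13, and groups of fewer libraries overlap less readily for any gene. Near-zero values changed sign. With the offsets and the Xist covariate Snx7 was at −0.0070, Snx8 at 0.015, Snx33 at 0.016 and Vps52 at 0.027. Vps52 was also at 0.032 with the offsets, 0.029 with the block and offsets and 0.0024 with the Xist covariate. With 1 library left out Snx7 ranged from −0.018 to 0.14, Snx32 from −0.19 to 0.020 and Vps52 from −0.080 to 0.0089. The highest level, that of Snx17, was 207 CPM per kilobase with the longest transcript. With 4 mice against 3, the precision is limited by the number of mice; counts of scarce genes such as Snx22 limit it further.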
